A study of Arabidopsis thaliana with 4 samples.

Results

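BCAT4 and AOP3 are genes of aliphatic glucosinolate synthesis in Arabidopsis thaliana, and both were examined on 2-colour long-oligonucleotide arrays that compared agamous with wild-type inflorescences. They are 2 of the 5415 loci with a probe listed for that locus alone, and 2 of the 534 such loci that carry a symbol. Both were chosen by their symbols after their ratios on these same arrays were known, so their own values are a description and carry no test. Each gene was read by 1 probe, A011811_01 for BCAT4 (AT3G19710) and A015483_01 for AOP3 (AT4G03050).

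Glucosinolates are sulfur-rich defence compounds of the cabbage order, which release toxic products when myrosinase enzymes cut them in damaged tissue. Aliphatic glucosinolates are built from methionine in stages. BCAT4 removes the amino group of methionine and so admits it to the cycle that lengthens its side chain, after which cytochrome P450, glutathione transferase, C-S lyase, glucosyltransferase and sulfotransferase steps form the core. AOP3, a 2-oxoglutarate-dependent dioxygenase, acts after the core is formed and turns a methylsulfinylalkyl side chain into a hydroxyalkyl one. Seeds and inflorescences are rich in these compounds.

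The study had 4 arrays, named set1 to set4, and each was hybridised with total RNA from agamous inflorescences in one channel and from wild-type inflorescences in the other. AGAMOUS encodes the MADS-domain factor that specifies stamens and carpels and stops the floral meristem, and flowers of the mutant repeat sepals and petals instead. The labels put agamous RNA in channel 1 on set1 and set3 and in channel 2 on set2 and set4, and they name neither the allele, the accession of the plants, the flower stage nor whether the sets were separate plants. P-values therefore measure the spread between these arrays, which may be technical. In such whole inflorescences, fewer cells that express a gene and less RNA per cell cannot be told apart.

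The direction of the ratios is not settled. The labels pair set1 with set3 and set2 with set4, but across features inside the bounds of the table the deposited log2 ratios of set1 and set3 correlated with Pearson's r = -0.66 and those of set2 and set4 with r = -0.71, whereas set1 with set4 gave 0.70 and set2 with set3 gave 0.77. These coefficients are across genes, which are not independent replicates. Values are therefore given as deposited and also with the signs of set2 and set3 turned, called the turned ratio below. AGAMOUS itself had no probe of its own, so the mutated gene could not check the labels.

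The deposited log2 ratio of BCAT4 was 2.42 on set1, -1.92 on set2, -1.75 on set3 and 1.15 on set4. That of AOP3 was 2.45 on set1, -1.78 on set2, -1.20 on set3 and 1.66 on set4. Both genes were thus above 0 on set1 and set4 and below 0 on set2 and set3, and for both set1 held the ratio farthest from 0. The same signs were found for 31.0% of the 25818 features with 4 values, so the signs alone do not mark these genes.

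**Figure D1:**
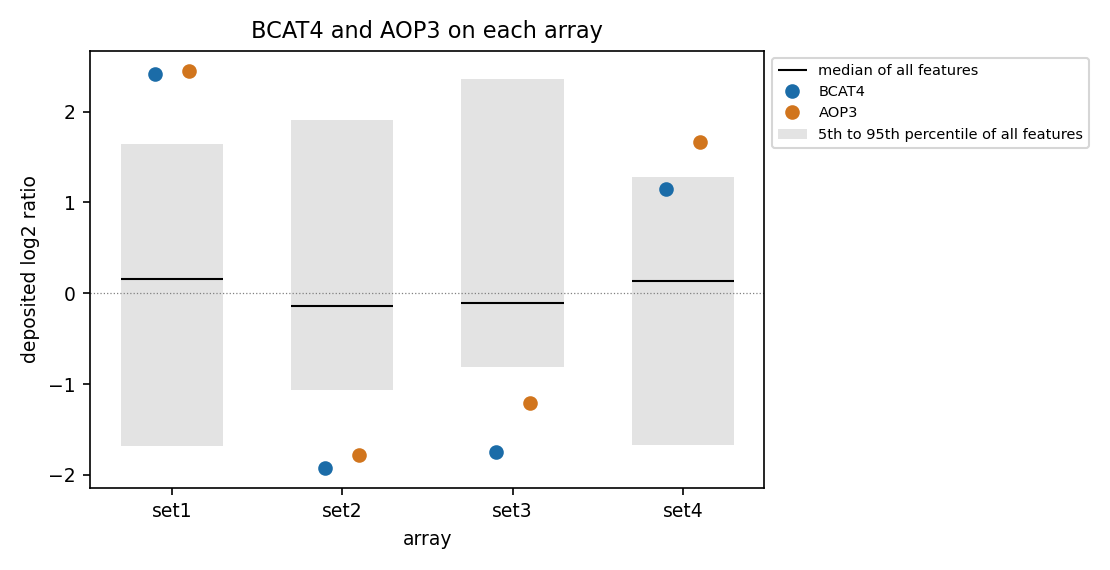
Deposited log2 ratios (vertical axis) of BCAT4 (blue) and AOP3 (orange) on the 4 arrays (horizontal axis), with the 5th to 95th percentile of all features as grey bars and their median as a black line. Of the 8 points, BCAT4 on set4, at 1.15, is inside its grey bar and the other 7 are outside.

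As deposited, the arrays cancelled. BCAT4 had a mean of -0.027 ± 2.15 (SD, n = 4) and AOP3 of 0.28 ± 2.09 (SD, n = 4). With set2 and set4 turned, as the channel labels alone would have it, the means were 0.36 ± 2.11 for BCAT4 and 0.34 ± 2.08 for AOP3 (SD, n = 4 each). In neither reading did a mean exceed the spread of its arrays.

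With set2 and set3 turned, BCAT4 averaged 1.81 ± 0.53 (SD, n = 4), as a log2 ratio, which is 3.50-fold, and AOP3 1.77 ± 0.52 (SD, n = 4), which is 3.42-fold. All 4 turned ratios of each gene were above 1, the lowest being 1.15 for BCAT4 on set4 and 1.20 for AOP3 on set3. The median of all features in this reading was 0.15, and relative to each array's own median the means were 1.67 for BCAT4 and 1.64 for AOP3. With the overall sign reversed the means become -1.81 and -1.77.

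The overall sign was read from organ markers. Their p-values leave out that the array signs were chosen from these same ratios. ATA20, an anther gene, had a mean turned ratio of -2.83 ± 0.24 and EMS1, a receptor kinase needed for tapetum fate, of -1.35 ± 0.03 (SD, n = 4 each, adjusted p = 0.00119 and 0.00232, limma). SWEET9, the sugar transporter of nectaries, had -4.55 ± 0.66, and INO, the YABBY factor of the outer ovule integument, -1.52 ± 0.47 (SD, n = 4 each, adjusted p = 0.00194 and 0.0155, limma). These are all of the 2 measured genes among 17 stamen markers and of the 2 among 7 carpel and nectary markers, and BCAT4 and AOP3 had the opposite sign to each of them on all 4 arrays. ATA20 and INO are averages of probes that shared a sign but differed in size, which the SD over arrays does not show. Turned means per probe were -3.77 and -1.89 for ATA20, and -2.80, -0.92 and -0.83 for INO. Because agamous flowers lack stamens and carpels, the organs of ATA20, EMS1 and INO, a positive turned ratio is likely the higher level in agamous. This reason does not cover SWEET9, a gene of nectaries. PRK and SBPASE, Calvin cycle enzymes and the 2 measured genes of the 7 petal and sepal markers, had 0.33 ± 0.28 and 0.04 ± 0.07 (SD, n = 4 each, adjusted p = 0.171 and 0.773, limma). The part of organ composition in the ratios of BCAT4 and AOP3 was not tested.

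The place of both genes among all features differed between arrays. BCAT4 stood above 96.1% of features on set1, 98.9% on set2, 99.6% on set3 and 94.2% on set4 by turned ratio. AOP3 stood above 96.1%, 98.7%, 98.6% and 96.1% in the same order. Distance from the array median was also taken in units of the array's median absolute deviation, scaled to equal the SD under a normal distribution. BCAT4 lay 3.82, 3.29, 3.63 and 2.09 above the array median on set1 to set4, and AOP3 lay 3.88, 3.02, 2.43 and 3.15 above it. BCAT4 was least apart from other features on set4 by both measures. For AOP3 the measures differed, with the lowest value on set3 in these units but on set1 and set4 by percentile.

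The 2 genes had ratios of similar size. BCAT4 minus AOP3, by turned ratio, was -0.034 on set1, 0.15 on set2, 0.54 on set3 and -0.52 on set4. The sign of the difference was split between arrays, and its mean of 0.035 ± 0.44 (SD, n = 4) was smaller than its spread.

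Among 532 loci with a symbol and 4 values, BCAT4 ranked 7 and AOP3 ranked 8 by mean turned ratio. Their neighbours in that order were TBL36, a trichome birefringence-like protein, above BCAT4 at 1.87 and the small heat shock protein gene ATHSP22.0 below AOP3 at 1.76, and these gaps are smaller than the SD of either gene. Of the 532 loci, 5 had a turned ratio of at least 1, a 2-fold difference, on every array. They were BCAT4, AOP3, CSLA01, IQD19 and NCRK. Over all 25818 features 88 (0.341%) did so with this sign, of which 81 had no value at a bound, against 1293 (5.01%) with the opposite sign. The opposite sign is that of the stamen markers.

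The genes with the most similar pattern were sought by Euclidean distance over the 4 deposited log2 ratios, among 24543 other features with 4 values inside the bounds. For BCAT4 the nearest loci with a symbol were NCRK, a receptor-like kinase, at a distance of 0.597, AOP3 at 0.763, CSLA01, a mannan synthase, at 0.808, IQD19, a calmodulin-binding scaffold protein, at 0.992 and MPC at 1.14. For AOP3 they were CSLA01 at 0.413, NCRK at 0.602, IQD19 at 0.659, BCAT4 at 0.763 and BLT, a regulator of trichome branching, at 0.947. Counting every feature, AOP3 was number 15 in distance from BCAT4 and BCAT4 number 40 in distance from AOP3. With 4 arrays and 1 common sign pattern, many features lie about as close.

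Few other genes of the pathway could be read singly. Of 64 genes on 6 glucosinolate lists, 6 had a probe of their own, among them BCAT4 as the only one of 9 for methionine chain elongation and 2 of 10 for side chain changes (AOP3 and the locus AT2G25450). The lists of 12 regulators, which held the MYB and MYC factors, of 10 genes for transport and breakdown, of 8 for sulfur and methionine supply and of 5 further branched-chain aminotransferases had none. The MAM, CYP79F and FMO genes of the aliphatic branch are thus not analysed here.

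Of the 4 measured pathway genes other than BCAT4 and AOP3, 2 passed limma's test against a ratio of 0 (Benjamini-Hochberg adjusted p under 0.05 over 26100 features), both in the sign of BCAT4 and AOP3, and 0 in the other. Of all features, 17.4% passed in either direction and 8.23% in this one, and the median turned ratio of the 4 genes was 0.73 against 0.15 for all features. The array signs came from these same ratios, a choice that limma's adjustment leaves out. Read as deposited, 0.226% of features passed and 0 of the 4 genes, and with the labels' signs 0% passed (191 features at an unadjusted p under 0.05), again with 0 of the 4, by limma. The lowest unadjusted p of these genes was 0.384 as deposited and 0.470 with the labels' signs.

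GSTU20, a glutathione transferase placed with the aliphatic core, had deposited log2 ratios of 2.17, -1.29, -0.77 and 0.75 on set1 to set4. Its turned mean was 1.24 ± 0.66 (SD, n = 4), a 2.37-fold difference (adjusted p = 0.0468, limma). The value on set1 was the largest, as for AOP3 and BCAT4. This call ended without any one of the 4 arrays (adjusted p from 0.0688 to 0.170, limma) and also after centring each array on its median (0.0651) and after quantile normalization (0.0870).

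UGT74B1 was the only measured gene of the 13 on the indolic list, and was not on the aliphatic core list. This glucosyltransferase adds the glucose of the core and serves the indole branch as well. Its deposited log2 ratios were 1.23, -0.83, -0.51 and 0.57 on set1 to set4. Its turned mean was 0.78 ± 0.33 (SD, n = 4), a 1.72-fold difference (adjusted p = 0.0378, limma). The call likewise ended without any one array (adjusted p from 0.0798 to 0.151, limma) and after centring (0.0583).

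AT2G31790, a locus on the aliphatic core list that the reference table leaves unnamed, had 1.20, -0.68, -0.41 and 0.40 on set1 to set4 as deposited, and a turned mean of 0.68 ± 0.37 (SD, n = 4, adjusted p = 0.0618, limma). It did not pass, with all 4 turned ratios on the side of BCAT4.

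AT2G25450, an unnamed locus on the side chain list, had the opposite sign, with deposited ratios of -2.53, 1.05, 0.32 and -1.46 and a turned mean of -1.34 ± 0.92 (SD, n = 4, adjusted p = 0.0760, limma). It did not pass, and its probes disagreed. A020605_01 had a turned mean of -2.09 and A005080_01 of -0.59, the latter with -0.027 on set3 and 0.11 on set4 as deposited. Tested per probe, A020605_01 passed (adjusted p = 0.0438, limma) and A005080_01 did not (0.372). The mean of both probes passed with values at the bounds missing (adjusted p = 0.0361, limma) and with pairs of arrays as a random block (0.0432). These calls were in the sign opposite to BCAT4 and AOP3. The pairs were set1 with set2 and set3 with set4, which differ in channel order by the labels.

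**Figure D2:**
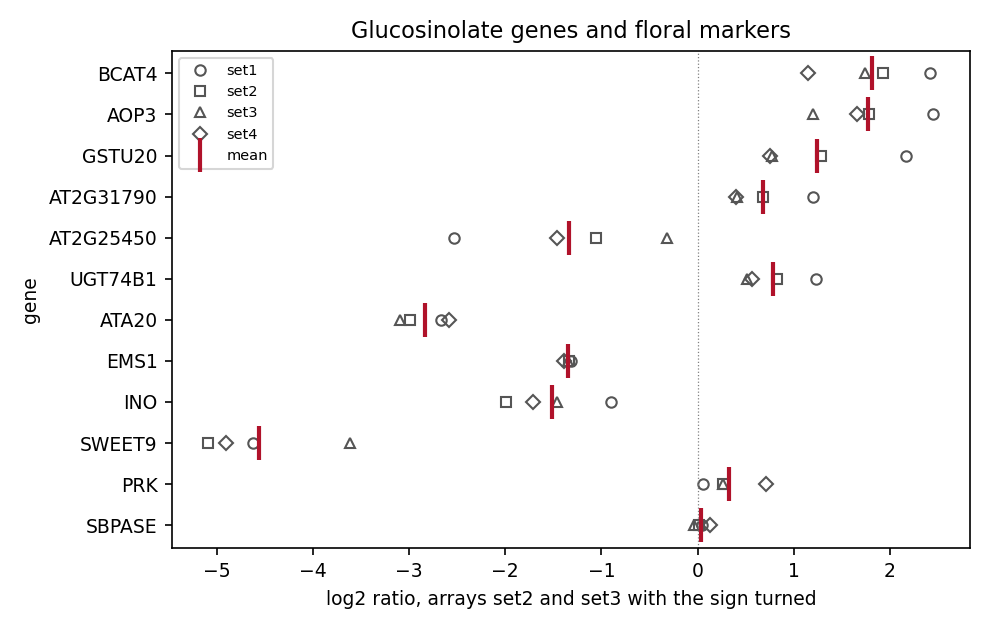
Turned log2 ratios (horizontal axis) of BCAT4, AOP3, the 4 other measured glucosinolate genes, and the measured markers of stamens (ATA20, EMS1), carpels and nectaries (INO, SWEET9) and petals and sepals (PRK, SBPASE). Open symbols are the 4 arrays and red bars their mean. BCAT4, AOP3, GSTU20, AT2G31790 and UGT74B1 are above 0 on every array, and AT2G25450 and the stamen, carpel and nectary markers below 0.

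AOP3 belongs to a tandem cluster of related dioxygenase genes. In the gene order of the RefSeq table, AOP2, the dioxygenase gene for alkenyl side chains and a transcribed pseudogene in the reference accession Columbia, and then AOP1 follow AOP3. Neither had a probe of its own. Probe A022556_01 is listed for AT1G52820, AOP3 and AOP1 and had deposited ratios of 1.11, -0.76, -0.56 and 0.30 on set1 to set4, with the signs of the AOP3 probe on every array and a turned mean of 0.68 ± 0.34 (SD, n = 4). Probe A000440_01, listed for AT1G52820, AT1G52810, AT1G28030 and AOP1, had -0.79, -1.94, -1.48 and -1.56, below 0 on all 4 arrays. Neither probe gives a level of a single gene, and relatives may share signal on the AOP3 probe.

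Ratios as large as those of BCAT4 and AOP3 were not found at the nearest loci with a probe of their own. Such ratios are rare, as 0.341% of the 25818 features with 4 values were at least 2-fold in this sign on every array. Their absence at 12 loci was therefore likely in advance, and nothing about gene order is read from it. Around BCAT4 these lay 3, 8 and 11 places away in gene order on one side and 7, 8 and 9 on the other, and around AOP3 1, 5 and 6 places away on one side and 7, 12 and 15 on the other, so that apart from AT4G03040 beside AOP3 none was adjacent. The 3 nearest measured loci on each side of BCAT4 had turned means from 0.07 (AT3G19690) to 0.42 (AT3G19800), and those around AOP3 from -0.34 (AT4G03040) to 0.41 (AT4G03030). Of these 12 loci, 0 passed limma's test in either direction, beside 17.4% of all features, and nothing is read from this count of few loci. They had adjusted p from 0.0650 (AT3G19800) upward and 1 at an unadjusted p under 0.05. AT4G03040, next to AOP3, had -0.37, 0.41, 0.60 and 0.01 as deposited, with the opposite signs to AOP3 on set1 to set3. The annotated span of BCAT4 overlaps that of IKU2, a receptor-like kinase gene of endosperm growth with no probe of its own here, and the strand read by the BCAT4 probe is not given in the sources used here.

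**Figure D3:**
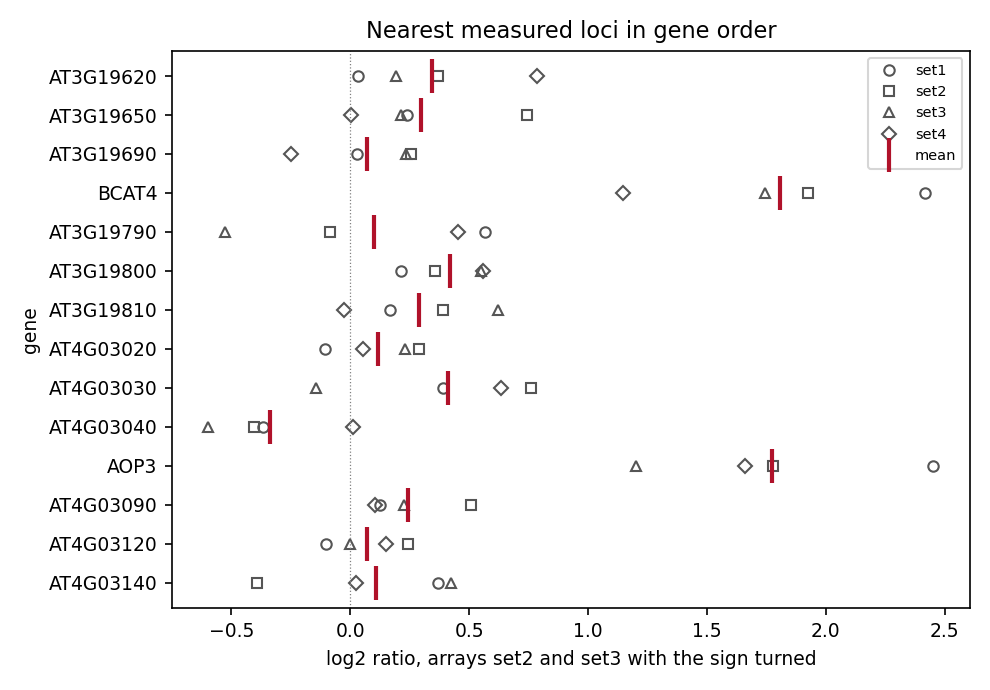
Turned log2 ratios (horizontal axis) of the 3 nearest measured loci on each side of BCAT4 and of AOP3, in gene order from top to bottom. Open symbols are the 4 arrays and red bars their mean. The 12 neighbours have means between -0.34 and 0.42, and BCAT4 and AOP3, chosen with their ratios known, lie above 1 on every array.

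The size of the mean depended on how the arrays were signed and scaled. Centring, centring with scaling and leaving out any one array kept BCAT4 between 1.61 and 2.03 and AOP3 between 1.55 and 1.96. Quantile normalization of the turned ratios raised BCAT4 to 3.04 and AOP3 to 2.80.

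**Figure D4:**
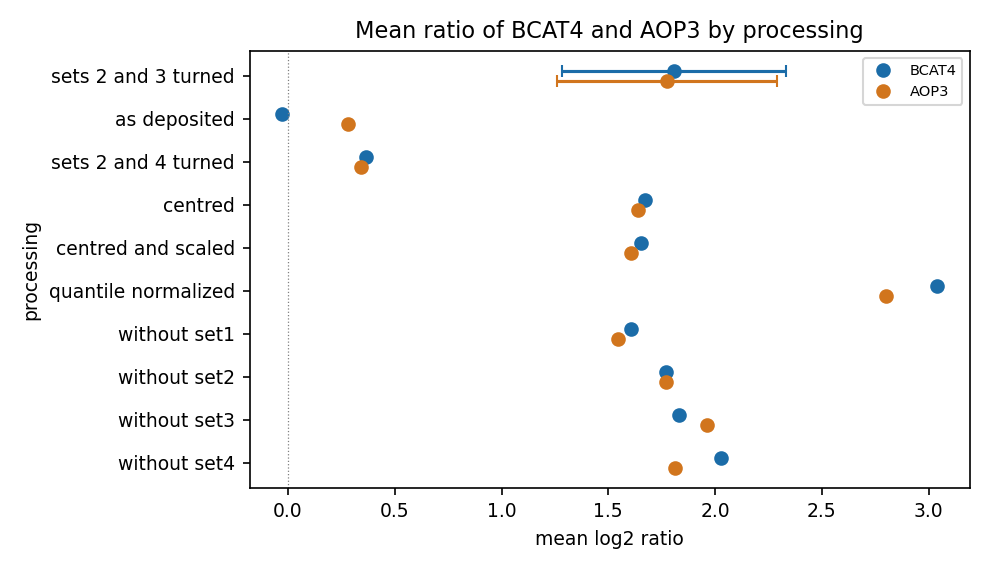
Mean log2 ratio (horizontal axis) of BCAT4 (blue) and AOP3 (orange) under each sign and scaling of the arrays and without each array in turn. Bars on the top row are the SD over the 4 arrays. As deposited the means are -0.027 and 0.28, and with set2 and set3 turned 1.81 and 1.77.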

How the data were processed

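Each feature has 1 deposited log2 ratio of an array's channels, which the authors normalized as in a cited publication, per the labels, which give no steps. The scale was read from the values, which end at plus and minus 6.64 (the log2 of 100). The numerator channel and the centring stay unknown. Array medians were 0.16, -0.14, -0.11 and 0.13. Of 26474 probes, 5784 were listed for 1 gene in the platform annotation and 5756 matched a locus of the RefSeq table (TAIR10.1), which gave symbols and gene order. Probes of a locus were averaged, giving 26133 features. The 424 empty and 35 control features were left out. Features with at least 3 values were tested with limma 3.58.1 in R 4.3.3 (two-sided, Benjamini-Hochberg). The fit was also run on simulated ratios, drawn independently for each array around 0 or a known change. Such ratios leave out the choice of array signs and any pairing of arrays, so that run does not check the calls given here. The genes and lists were chosen with earlier results of these data known. Named by rule were the list genes, the 3 nearest measured loci on each side and the 5 most similar loci with a symbol, and TBL36, ATHSP22.0 and the shared probes were named after their values were seen. Precision is limited by the number of arrays, and no signal levels were used.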

Additional observations from a re-analysis of the deposited data

How the results depend on the processing

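The means of BCAT4 and AOP3 moved by more than their SD under 3 of 17 alternatives. They were -0.027 and 0.28 as deposited, 0.36 and 0.34 with the labels' signs, and 3.04 and 2.80 after quantile normalization. Leaving out 1 array gave 1.61 to 2.03 for BCAT4 and 1.55 to 1.96 for AOP3. The other 10 alternatives gave means within 1 SD, and most of these change only the test. The 4539 features called became 59 as deposited, 0 with the labels' signs (by limma, 191 at an unadjusted p under 0.05), 1749 with a dye term, 809 with pairs of arrays averaged and 6909 with pairs as a random block, and 1050 to 1899 without 1 array. The 2 pathway genes called became 0 as deposited, with the labels' signs, after centring, with a dye term, with averaged pairs, with a term for channel bias (added after seeing the data) and without any 1 array, and 4 with values at the bounds missing or with a random block. The cause of these shifts was not tested. Arrays were paired as set1 with set2 and set3 with set4, not by shared channel order. Without 1 array fewer values enter the fit. AT2G31790 passed after quantile normalization (adjusted p = 0.0452, limma), with values at the bounds missing (0.0361) and with a random block (0.0398). AT2G25450, of opposite sign, passed with values at the bounds missing (adjusted p = 0.0361) and with a random block (0.0432), and its probe A020605_01 alone passed (0.0438). After quantile normalization the count of 2 held UGT74B1 and AT2G31790, as GSTU20 no longer passed (adjusted p = 0.0870).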

Other observations

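Probes listed for several genes, of which at least 1 is on a glucosinolate list, gave no level of a single gene, and their turned means were as follows. A017664_01, listed for the bHLH factors MYC3 and MYC4 of jasmonate signalling, had 0.26 ± 0.26 (SD, n = 4). Of the probes that list the beta-glucosidase gene PYK10 with relatives, A025685_01 (with BGLU21 and BGLU22) had 0.41 ± 0.15 and A025919_01 (with BGLU24 and AT5G48175) had -0.44 ± 0.13 (SD, n = 4 each), with opposite signs on all 4 arrays. A023408_01, listed for AT2G30840, AT2G30830 and AT2G25450, had deposited ratios of 6.64 on set1 and set3, both at the bound, 0.71 on set2 and 1.79 on set4, and thus no measured mean. The values of A022556_01 and A000440_01 are given with AOP3.

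Features with no probe did not give small ratios. The median turned ratio of empty features was 6.64, the bound, on set1 and set4, 0.92 on set2 and -3.01 on set3. BCAT4 was exceeded by 62.7% of empty features on set1 and 83.9% on set4, and by 20.8% on set2 and 0.75% on set3. Of 352 empty features with 4 values, 62 (17.6%) had the signs of BCAT4 and AOP3 on all arrays, and 5 (1.42%) were at least 2-fold on each, all 5 with a value at a bound. The size of a ratio on 1 array therefore does not show that a probe had signal, and the signal of the BCAT4 and AOP3 probes is not known here.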
